A study of Mus musculus with 48 samples.

Results

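The cells described here were cycling cells of the embryonic mouse hypothalamus, chosen by what their RNA showed: a cell was a member if at least 3 of the 5 cell cycle genes Mki67, Top2a, Ube2c, Birc5 and Cdk1 were detected, fewer than 2 of the 4 oligodendrocyte precursor genes Olig2, Pdgfra, Cspg4 and Sox10, and fewer than 3 of the 6 endothelial genes Cldn5, Pecam1, Flt1, Ly6c1, Cdh5 and Ly6a. The rule found 197 of 14121 cells, 49 of 7186 from control and 148 of 6935 from Eed-cKO embryos. Another 25 cells met the cell cycle criterion but were set aside as cycling oligodendrocyte precursor-type cells and 20 as cycling endothelial-type cells.

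Late in gestation most hypothalamic neurons have left the cell cycle, and the cells that still divide lie mainly along the third ventricle, as radial glia and their descendants. A dividing cell makes DNA replication enzymes in S phase and then mitotic kinases, cyclins and spindle proteins in G2 and M, whereas CDK inhibitors hold cyclin-dependent kinases back. Polycomb repressive complex 2 (PRC2), in which Eed is a core subunit beside the methyltransferases Ezh1 and Ezh2 and the subunit Suz12, trimethylates lysine 27 of histone H3. That mark keeps CDK inhibitor genes of the Ink4 group, the Hox clusters and many other developmental genes silent where they are not needed.

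All embryos were homozygous for the floxed Eed allele (Eed fl/fl) and were taken at E18.5. The 6 control embryos carried no Cre, and the 9 Eed-cKO embryos (Eed fl/fl; Sox1-Cre/+) also carried Cre in the Sox1 locus, which acts in the early neural tube and its descendants, so that microglia and cells of vessels and meninges, which arise elsewhere, lie outside its reach. The 2 groups also differed by the Cre insertion itself, and by litter as read from the embryo names, and neither can be told apart from the deletion of Eed. The stock was of mixed background, each hypothalamus was cut into pieces before dissociation, and single cells were sequenced from their 3′ ends in 48 droplet libraries, so values are counts of unique molecular identifiers (UMIs) per gene and cell.

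Total depth per embryo was between 5363119 and 7487417 UMIs in controls and between 658175 and 6299181 in Eed-cKO embryos, and the members alone held between 17909 and 88035 UMIs in each control and between 68205 and 384444 in each of the 6 Eed-cKO embryos with at least 5 members. The median member held 5606 UMIs in control embryos and 5913.5 UMIs in Eed-cKO embryos. A control library of embryo F4650_E2 stood apart with 1207 cells against a median of 280 among control libraries, and it held 9 of that embryo's 10 members. A total of 101 cell barcodes were seen in more than 1 library, and none of these belonged to a member (0 of 197).

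The 5 genes that chose the cells are given as a description. Top2a, the topoisomerase that untangles sister DNA, was detected in 93.9% of members and Cdk1, the mitotic kinase, in 88.3%. Ube2c, which serves the anaphase-promoting complex, was detected in 80.2%, Birc5 (survivin, of the chromosomal passenger complex) in 69.5% and Mki67, which coats mitotic chromosomes, in 62.4%. In the other 13924 cells each was detected in 0.56% to 1.75%. Of the members, 76 held 3 of the genes, 56 held 4 and 65 held all 5, and 74 cells lay just outside the rule with 2. Those 74 cells were close to the 76 just inside it in progenitor genes, with at least 4 of 8 progenitor markers in 71.6% against 78.9%, and lower in S-phase genes, with at least 3 of 12 S-phase cell markers in 25.7% against 46.1%.

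Promoters of genes made late in the cycle often carry the CCAAT box and the CHR element, and the 200 bases before the start of 3 of the marker genes are shown as examples with several, more and none of them. The sequences are from RefSeq on GRCm38.p6, 5′ to 3′ in the direction of the gene, for Mki67 at chr7:135716380-135716579 (minus strand), Top2a at chr11:99024190-99024389 (minus strand) and Birc5 at chr11:117849037-117849236 (plus strand). Capitals mark the CCAAT box and the CHR, searched as TTTGAA and, in a second form, as TTCGAA, on either strand. On the other strand the CCAAT box reads ATTGG and the first form of the CHR reads TTCAAA.
Mki67: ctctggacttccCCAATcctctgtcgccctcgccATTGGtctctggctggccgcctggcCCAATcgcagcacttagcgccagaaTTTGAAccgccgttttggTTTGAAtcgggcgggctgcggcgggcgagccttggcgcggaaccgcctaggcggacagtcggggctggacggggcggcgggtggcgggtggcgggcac
Top2a: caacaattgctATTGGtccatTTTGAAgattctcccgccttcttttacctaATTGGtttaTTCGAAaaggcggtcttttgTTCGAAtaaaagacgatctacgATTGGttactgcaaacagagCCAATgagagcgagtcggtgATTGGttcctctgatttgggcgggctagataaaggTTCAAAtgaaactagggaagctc
Birc5: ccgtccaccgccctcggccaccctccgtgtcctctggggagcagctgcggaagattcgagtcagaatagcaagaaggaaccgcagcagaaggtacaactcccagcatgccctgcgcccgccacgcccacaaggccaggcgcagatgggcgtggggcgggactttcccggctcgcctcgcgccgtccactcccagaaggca

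The Mki67 window held 3 CCAAT boxes and 2 CHR of the first form, the Top2a window 5 CCAAT boxes and 2 CHR of each form, and the Birc5 window none of them. A CCAAT box together with a CHR of either form was in 4 of the 5 marker windows. The same pair was in 21 of 60 windows (35%) of the 54 matched genes of a mitosis and G2/M list, in 5 of 46 (10.9%) of the 40 matched genes of a DNA replication and S-phase list, and in 4.02% of all 32851 windows of the table. A match describes these letters only.

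Whether the chosen cells were progenitors was checked with genes the rule did not use. At least 4 of 8 progenitor markers were detected in 166 of 197 members (84.3%), 77.6% in control and 86.5% in Eed-cKO, against 9.21% of the 12886 cells with 0 cycling markers. Vim, an intermediate filament of radial glia, was detected in 95.4% of members, the glutamate transporter Slc1a3 and the lipid carrier Fabp7 each in 78.2%, and the transcription factors Sox2 in 75.6% and Sox9 in 73.1%. Hes1 and Hes5, which Notch signalling turns on, were detected in 69.0% and 64.0%, and Nes in 59.9%. At least 3 S-phase cell markers were seen in 58.4% of members and in 1.03% of cells with 0 cycling markers, led by Rrm2, which makes deoxynucleotides, in 60.4% of members.

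Not all members carried progenitor markers, and some carried those of other cells. At least 3 of 8 neuron markers were detected in 65 members (33.0%, against 82.8% of cells with 0 cycling markers), and 60 members had both progenitor and neuron markers. Astrocyte markers were seen in 59.9%, tanycyte markers in 32.0% and ependymal markers in 20.3%, against 13.2%, 6.42% and 2.03% of cells with 0 cycling markers. At least 3 microglia, mural, leptomeningeal, pituitary or erythroid markers were seen in 39 members (19.8%), 8 in control and 31 in Eed-cKO, and 18 of these had progenitor markers too. They comprised 21 with leptomeningeal, 12 with mural, 11 with microglia, 2 with erythroid and 1 with pituitary markers. Since the members included such cells, they are called cycling cells here. Of the 197 members, 10 carried neither progenitor nor non-neural markers.

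**Figure D1:**
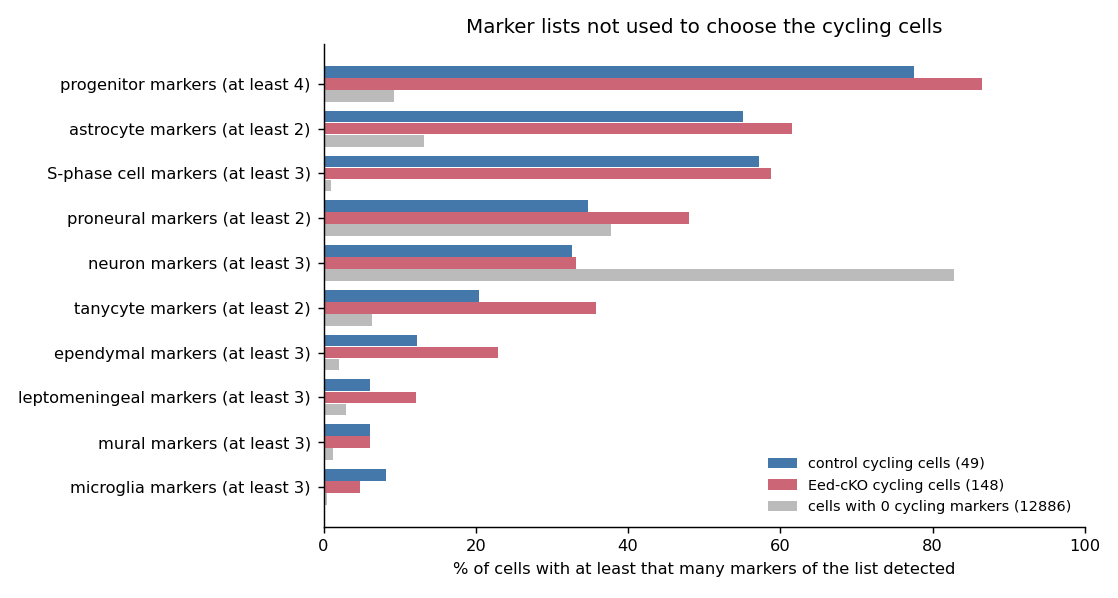
Percent of cells (x axis) in which at least the stated number of markers of each list (y axis) was detected, for the 49 control and 148 Eed-cKO cycling cells and for the 12886 cells with 0 cycling markers, as bars over all cells of a class with no error. Progenitor markers are at 77.6% and 86.5% of cycling cells against 9.21% of the other class, and neuron markers are at 33.0% of all cycling cells against 82.8%.

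Non-cycling progenitor-type cells had at least 4 progenitor markers, 0 cycling markers and none of the non-neural labels, and numbered 1074. In the 12 embryos with at least 5 members, which held 190 members and 956 of these cells, the cycling cells held more RNA of the cell cycle machinery in both genotypes, as the rule would lead to. All 52 genes of the S-phase list and 66 of 67 measured mitosis and G2/M genes had more UMIs per 1000000 UMIs of the cells (CPM) in members than in the non-cycling cells, in control and in Eed-cKO alike. Pttg1, which makes securin, was the exception at 0.916 times its non-cycling level in control and 0.664 times in Eed-cKO. The mitosis list summed to 10.2 times its non-cycling level in control and 9.82 times in Eed-cKO, and the S-phase list to 4.90 and 3.83 times. These ratios are a description, since the rule chose on genes of the same cells.

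Single genes show the size of it. Ccnb1, the cyclin that partners Cdk1 in mitosis, was at 348 CPM in control members against 1.56 in control non-cycling cells, and at 391 against 1.49 in Eed-cKO. Cdc20, an activator of the anaphase-promoting complex, was at 235 against 1.56 in control and 219 against 2.97 in Eed-cKO. The G1 cyclin genes differed from these: Ccnd2 was at 358 against 191 CPM in control but at 443 against 1089 in Eed-cKO. Ccnd1 was at 132 against 121 in control and 416 against 761 in Eed-cKO, so that in Eed-cKO both stood higher in the cells without cycling markers. The CDK inhibitor genes were on no common side, with 3 of 7 higher in members than in non-cycling cells in control and 2 of 7 in Eed-cKO. In control Cdkn2a had 0 UMIs in both classes and Cdkn2b had 0 against 6, too few to compare. Cdkn2c was at 103 against 2.09 CPM in control and 155 against 21.9 in Eed-cKO.

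**Figure D2:**
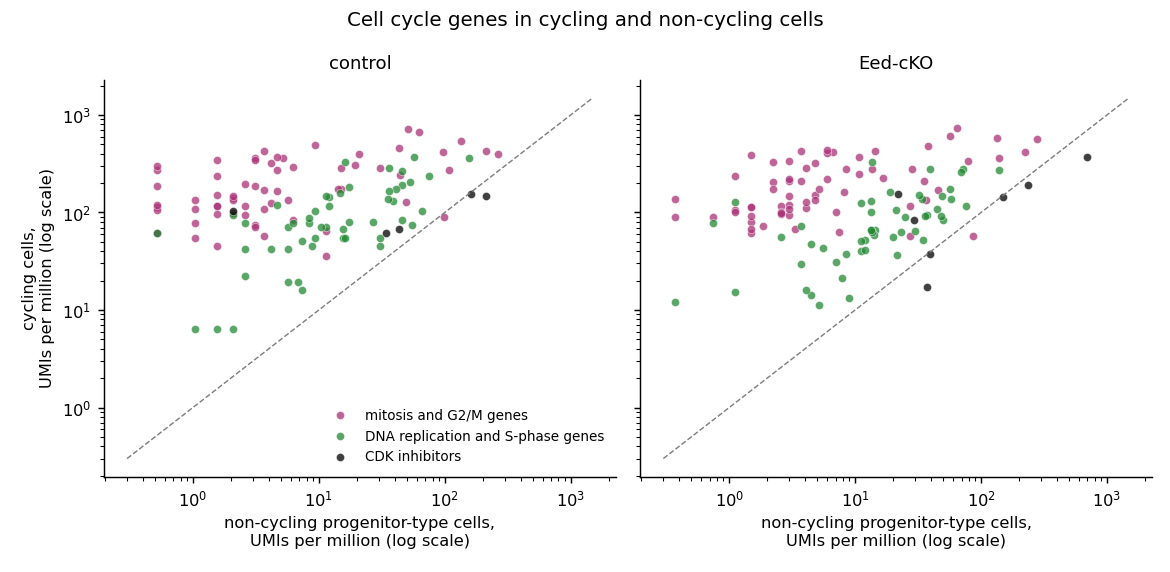
CPM of cell cycle genes in non-cycling progenitor-type cells (x axis) and in cycling cells (y axis), both log scales, in each genotype, for genes with a UMI in both classes. Points above the diagonal are higher in cycling cells, and Pttg1 lies below it in both genotypes.

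The first comparison asked how many cells were cycling. Cycling cells made up 0.688% ± 0.183 of the cells of control embryos (SD, n = 6) and 1.86% ± 1.27 of those of Eed-cKO embryos (SD, n = 9). In control the lowest embryo was at 0.448%, the median at 0.656% and the highest at 0.991%, and in Eed-cKO they were at 0.461%, 1.51% and 4.15%. The difference was 1.18 percentage points with an exact two-sided permutation p = 0.0386 over the embryos, and 0.0909 when adjusted over the 6 shares compared, so it did not pass the threshold of 0.05. Of the Eed-cKO embryos, 6 of 9 were above the highest control, and the other 3 (F0582_E2, F502_E6 and F502_E9) lay inside the control range.

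Those 3 embryos had 1, 3 and 3 members and came from 1 or 2 libraries each, and F502_E6 and F502_E9 shared a litter, as read from the embryo names. Without these 3 embryos the Eed-cKO mean was 2.52%. That mean is a description with no test, since the embryos left out are the 3 that lay inside the control range. With 39 members that carried non-neural markers removed, the means were 0.572% and 1.48% (adjusted exact permutation p = 0.124). With every cell thinned to 2000 UMIs, which left out 1315 shallower control and 1135 Eed-cKO cells, they were 0.530% ± 0.147 and 1.39% ± 0.814 (adjusted exact permutation p = 0.0351). With each litter as a sample, the means were 0.647% in 4 control and 2.15% in 6 Eed-cKO litters (adjusted exact permutation p = 0.114). No litter, as read from the embryo names, held both genotypes, so no within-litter value could be had.

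More cells met the definition of non-cycling progenitor-type cells in Eed-cKO. They were 5.49% ± 1.31 of cells in control (SD, n = 6) and 9.95% ± 1.32 in Eed-cKO (SD, n = 9), with all 9 Eed-cKO embryos above the highest control. The exact permutation p was 0.0001998, the smallest that 5005 splits allow, and 0.0012 when adjusted. Since Hes5, which is among the 8 markers, was itself called higher in Eed-cKO members (values are given with the genes), the class was also set by at least 3 of the 6 markers other than Hes1 and Hes5, a comparison added after the data were seen, and was then 6.40% ± 1.32 in control and 11.6% ± 1.71 in Eed-cKO (adjusted exact permutation p = 0.0012). The other markers differed in level too within this class, with Nes at 40.8 to 90.4 CPM in control embryos and 147 to 251 in Eed-cKO and Vim at 780 to 1968 and 1688 to 3774, while Sox2 was at 434 to 1019 and 337 to 560 and Fabp7 at 5218 to 11190.4 and 1872 to 5441. The number of such cells and the level of the genes that define them cannot be told apart here. Among cells with progenitor markers, the part that was cycling was 8.99% ± 3.66 in control and 13% ± 9.32 in Eed-cKO, a difference of 4.04 percentage points within the spread of the embryos (adjusted exact permutation p = 0.351). The 3 embryos of 1 or 2 libraries had the lowest values of this part among the Eed-cKO embryos, and the mean of the other 6 was 17.9%, again a description.

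Other dividing cells were compared in the same way. S-phase-type cells outside the rule, with at least 3 S-phase cell markers, were 1.05% ± 0.380 of cells in control and 1.56% ± 0.720 in Eed-cKO (adjusted exact permutation p = 0.204). Cycling oligodendrocyte precursor-type cells were 0.132% ± 0.101 and 0.223% ± 0.220 (adjusted exact permutation p = 0.351). Among endothelial-type cells, which Sox1-Cre does not target, 9.92% ± 1.94 were cycling in 6 control embryos and 4.25% ± 5.41 in 7 Eed-cKO embryos with at least 5 such cells (adjusted exact permutation p = 0.0909).

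**Figure D3:**
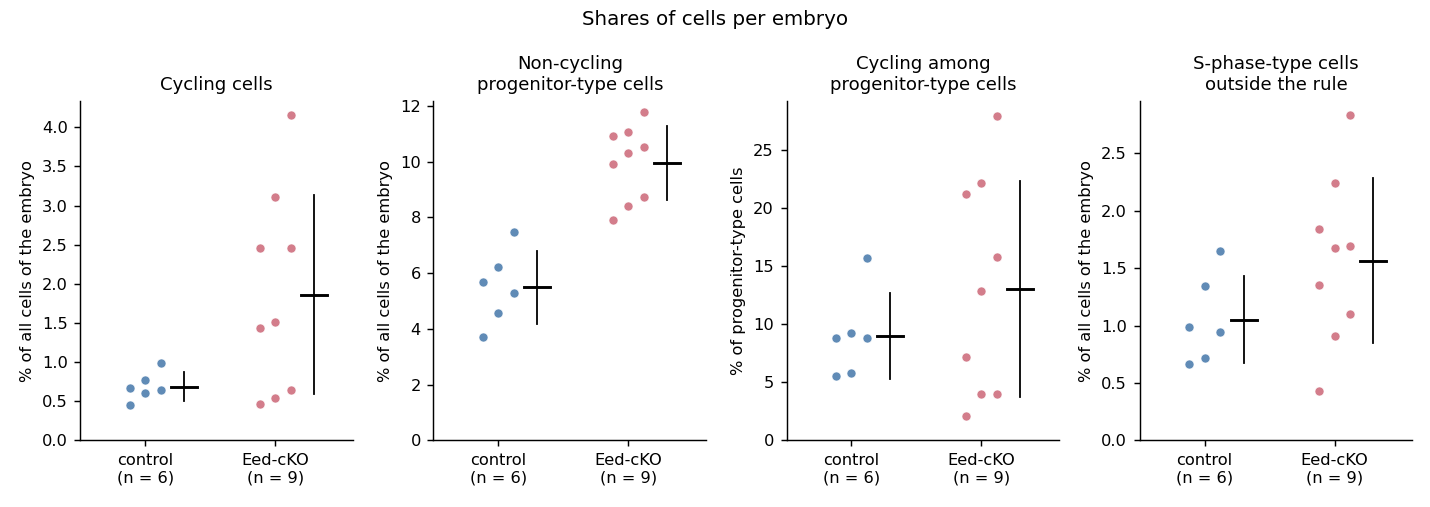
Shares by embryo, with bars at mean ± SD (6 control, 9 Eed-cKO embryos), of cycling cells, non-cycling progenitor-type cells and S-phase-type cells outside the rule as a percent of all cells, and of cycling cells as a percent of progenitor-type cells. For cycling cells, 6 of 9 Eed-cKO points lie above the highest control at 0.991%, and for non-cycling progenitor-type cells all 9 lie above the control points.

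The makeup of the cycling cells was compared over the 6 control and 6 Eed-cKO embryos with at least 5 members. Neuron markers were seen in 28.7% ± 27.2 of members in control and 29.2% ± 21.7 in Eed-cKO (exact permutation p = 0.976). The control embryo F4650_E2 stood apart with 80% of its 10 members, and 9 of its 10 members came from the large library. Proneural markers (at least 2 of 10), of cells on the way to becoming neurons, were seen in 36.2% ± 13.1 and 45.9% ± 13.8 (adjusted exact permutation p = 0.506). They were also seen in 37.7% of cells with 0 cycling markers and 42.2% of non-cycling progenitor-type cells, so they set the members little apart. Btg2, given below with the p53 response, was detected most often, in 44.9% of control and 62.2% of Eed-cKO members. Astrocyte markers were seen in 52.0% ± 27.9 and 57.3% ± 19.7 (adjusted exact permutation p = 0.970).

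Hox genes, which specify position along the hindbrain and spinal cord, separated the genotypes. A Hox UMI was found in 0 of 49 control members, which allows a share of up to 6.12% by counting error, and in 75 of 148 Eed-cKO members (50.7%). Over the 6 Eed-cKO embryos with at least 5 members the lowest was at 12.5%, the median at 49.4% and the highest at 73.2% of members. The mean was 46.3% ± 23.9 (SD, n = 6), every one of these embryos was above every control, and the exact permutation p of 0.00216 was the smallest 924 splits allow (adjusted 0.00866). Thinned to 2000 UMIs, the shares were 0% in 4 control and 23.7% ± 11.8 in 6 Eed-cKO embryos (adjusted exact permutation p = 0.0571).

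Non-cycling progenitor-type cells held a Hox UMI at 1 of 392 in control embryos but at 371 of 682 in Eed-cKO embryos (54.4%). Droplets also pick up free RNA, which adds UMIs to cells whatever they express, and 12 of 80 non-cycling endothelial-type cells (15%, median 4392 UMIs per cell) and 4 of 32 non-cycling microglia-type cells (12.5%, median 2365 UMIs) of Eed-cKO embryos held a Hox UMI as well. In members the Hox genes together were at 44.0 to 425 CPM in the 6 Eed-cKO embryos, and 32 of 34 Hox genes in the table had a UMI in a member. Pooled over the Eed-cKO cells, they were at 91.5 CPM in those endothelial-type cells (40 UMIs). In the microglia-type cells they were at 239 CPM (24 UMIs), and both values lie inside the range of the members. How much of the Hox RNA of members was free RNA was not tested. The UMIs were few for single genes, 315 in all, so that 7 Hox genes could be tested (Hoxa7, Hoxa9, Hoxa10, Hoxb13, Hoxc10, Hoxc13 and Hoxd8), all of which met the minimum of UMIs through the Eed-cKO embryos alone. By edgeR 0 of them were called (7 at an unadjusted p under 0.05), and with 0 control UMIs nothing is read from that count.

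The second comparison asked which genes differed between the genotypes within the cycling cells, on the summed UMIs of the members of each embryo. Of 10542 genes tested with edgeR's quasi-likelihood test, 18 had an adjusted p under 0.05 (0.171%), 17 higher (0.161%) and 1 lower (0.00949%) in Eed-cKO, and 660 had an unadjusted p under 0.05. The median log2 fold change of all genes was 0.16 with TMM normalisation and 0.01 with plain library size, so changes are given below relative to that median, on the log2 scale, with CPM scaled by TMM. With library size 9 genes were higher and 2 lower, 10 of them among the 18. In 13 of the 18 the embryos of the genotypes did not overlap, against a background of 0.512% of all tested genes with every Eed-cKO embryo above and 0.019% with every one below.

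Lmna, which encodes the nuclear lamina proteins lamin A and C (chr3:88480147-88509956), had the smallest adjusted p. It was at 0, 31.7 and 49.1 CPM in the lowest, median and highest control and at 154, 212 and 358 CPM in Eed-cKO, with no overlap. Its relative change was 2.80 ± 0.46 (SE, adjusted p = 0.000593), and it was called in 26 of 27 alternative analyses. Tmem132c (chr5:127241808-127565793) was at 0, 0 and 21.4 CPM in control and 44.7, 97.5 and 147 CPM in Eed-cKO, a relative change of 3.64 ± 0.72 (SE, adjusted p = 0.00502). With a control median of 0, Tmem132c met the minimum of UMIs through the Eed-cKO embryos alone, so its call is given as a description. S1pr3, a receptor for sphingosine-1-phosphate (chr13:51408639-51422797), was at 0, 13.5 and 40.2 CPM against 58.8, 106 and 154 CPM (2.85 ± 0.61 SE, adjusted p = 0.0121). The call of S1pr3 was lost without control embryo F4690_E3 or Eed-cKO embryo F0588_E7, with adjusted p up to 0.064. Control UMIs of S1pr3 were few as well, so the size of its change is uncertain.

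A transcription factor of other tissues was called among the genes of the posterior and dorsal transcription factor list. Twist1, a mesodermal and neural crest factor (chr12:33957671-33959829), had 0 UMIs in the 49 control members and 50 in Eed-cKO, at 36.9, 47.9 and 147 CPM in the lowest, median and highest embryo. Against a floor of 3 UMIs over the control group it was at least 5.83-fold higher (adjusted p = 0.0249), and it was called in 14 of 26 alternatives, the call being lost without 4 of the 12 embryos in turn, all of them control embryos. Twist1 met the minimum of UMIs through the Eed-cKO embryos alone, so its call is given as a description. The list stood at a median relative change of 1.21, with 25 of 29 tested genes above the median of all genes. Of its 65 genes in the table, 38 had 0 UMIs in control members and 3 had 0 in Eed-cKO members. The minimum of UMIs therefore favoured genes high in Eed-cKO, and the lean of the list is a description. Twist1 is also made by meningeal cells, and summed leptomeningeal markers, here without TMM, were at 0 to 4020 CPM in control against 199 to 8844 in Eed-cKO members. All 8 leptomeningeal markers were above 0 in both genotypes, and with the members that carried non-neural markers removed Twist1 was not called (adjusted p = 0.197).

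Hey1 and Hes5 were the 2 genes called among the 34 tested neural progenitor genes. Hey1, a repressor that Notch signalling turns on (chr3:8663359-8667256) was at 0, 34.3 and 116 CPM in control and 103, 232 and 283 CPM in Eed-cKO, with ranges that overlapped, and rose by 2.10 ± 0.42 (SE, adjusted p = 0.00502). Hes5 (chr4:154960923-154962371), a repressor that keeps radial glia from differentiating, was at 123, 483 and 715 CPM against 778, 1138 and 1446 CPM (1.16 ± 0.30 SE, adjusted p = 0.029). Its exons overlap the gene Gm20421 on the other strand, and its call held in 6 of 27 alternatives, whereas that of Hey1 held in 25 of 27. Hes1 was at 61.3, 239 and 564 CPM against 558, 682 and 749 CPM, and did not pass (1.16 ± 0.33 SE, adjusted p = 0.102). Hey2, also a Notch target, was at 14.7, 35.2 and 120.5 CPM against 12.3, 51.3 and 89.4 CPM (0.02 ± 0.59 SE, adjusted p = 0.999). The list as a whole stood at a median relative change of 0.07, with 20 of 34 above the median of all genes.

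Of the CDK inhibitors, 1 of 7 passed. Cdkn1a (p21, chr17:29090976-29100727), which p53 turns on and which stops cells in G1, was at 0, 42.0 and 147 CPM in control and 122, 213 and 279 CPM in Eed-cKO, with control embryo F4650_E1 at 147 inside the Eed-cKO range. It rose by 1.66 ± 0.40 (SE, adjusted p = 0.029), and that call held in 5 of 27 alternatives, with adjusted p up to 0.827. Its exons overlap AC167363.2 on the other strand. Cdkn2a (p16 and p19Arf, chr4:89274471-89294653) and its neighbour Cdkn2b (p15, chr4:89306299-89311039) had 0 UMIs in control members and 37 and 17 in Eed-cKO. Against the floor of 3 UMIs they were at least 4.32-fold and 1.98-fold higher, but neither passed (adjusted p = 0.114 and 0.549). Both met the minimum of UMIs through the Eed-cKO embryos alone.

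The other inhibitors had no call in cycling cells. Cdkn1c (p57) was at 37.6, 134 and 258 CPM against 177, 343 and 628 CPM (1.17 ± 0.39 SE, adjusted p = 0.352). Cdkn2c (p18) was at 24.5, 89.6 and 279 CPM against 113, 185 and 366 CPM (0.70 ± 0.44 SE, adjusted p = 0.82). Cdkn2d (p19Ink4d) differed by 0.30 ± 0.46 and Cdkn1b (p27) by -0.12 ± 0.34 (SE, adjusted p = 0.948 and 0.999), and the fitted value of Cdkn1b before the shift changed sign between TMM and library size. In the non-cycling progenitor-type cells 5 of 7 CDK inhibitors were called higher, with a background of 4.04% of 12724 genes higher, 2.47% lower and 6.51% in either direction. Cdkn2a was there at 0 UMIs in control against 117 in Eed-cKO, at least 23.5-fold higher. It met the minimum of UMIs in these cells through the Eed-cKO embryos alone. Cdkn2b held 6 UMIs in control non-cycling cells and 100 in those of the Eed-cKO embryos with at least 5 members. The count of 5 of 7 is therefore given as a description, and its contrast with 1 of 7 in cycling cells was not tested.

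**Figure D4:**
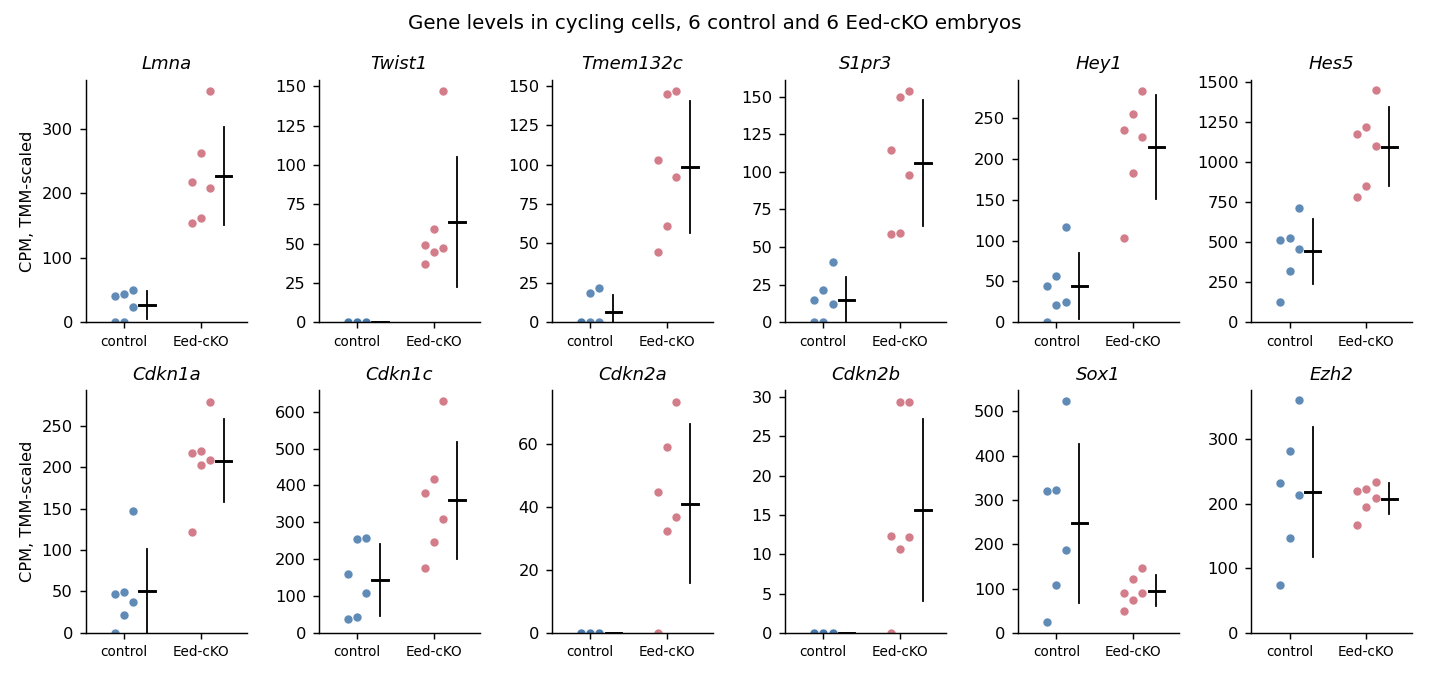
CPM of named genes in cycling cells by embryo, with bars at mean ± SD cut at 0 (6 control, 6 Eed-cKO embryos), where points at 0 lie on each other. Lmna in Eed-cKO is at 154 CPM or more in every embryo against 49.1 at most in control, while Cdkn1a overlaps at the control embryo with 147 CPM.

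Genes of the p53 response leaned one way as a group. All 17 tested were above the median of all genes, with a median relative change of 1.12. Eed-cKO members gave most UMIs of the list (1530 against 227 in control). The minimum of UMIs therefore favoured genes high in Eed-cKO, and the lean is a description. Only Cdkn1a passed among the 17, and 9 had an unadjusted p under 0.05, all of them higher. Ccng1, a cyclin that p53 induces, was at 0, 48.3 and 117 CPM in control and 159, 168 and 274 CPM in Eed-cKO, which do not overlap (1.39 ± 0.42 SE, adjusted p = 0.142). The cell death gene Pmaip1 (Noxa) was at 0, 0 and 12.3 CPM against 14.9, 51.2 and 79.9 CPM (3.51 ± 0.91 SE, adjusted p = 0.0875). With a control median of 0, Pmaip1 met the minimum of UMIs through the Eed-cKO embryos alone, so its values are a description. The antiproliferative gene Btg2 was at 64.3, 147 and 281 CPM against 264, 347 and 713 CPM (1.22 ± 0.33 SE, adjusted p = 0.0649). In non-cycling progenitor-type cells, where changes are called more readily, 10 of 18 were called higher. In the test of the difference between the classes 0 of 17 passed (4 at an unadjusted p under 0.05).

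The cell cycle machinery itself was not called, though a fit on so few cells misses many changes, so 0 calls do not show equal levels. Of 51 tested S-phase genes 0 passed (edgeR, 2 at an unadjusted p under 0.05) with a median relative change of -0.20 and 15 of 51 above the median of all genes. Mcm2, of the replicative helicase, was at 58.7, 185 and 282 CPM in control against 74.5, 86.8 and 184 CPM in Eed-cKO (-0.94 ± 0.36 SE, adjusted p = 0.758). Of 67 mitosis and G2/M genes 0 passed (3 at an unadjusted p under 0.05) with a median of 0.13 and 42 above, and Ccnb1 was at 160, 437 and 488 CPM against 305, 503 and 647 CPM (0.28 ± 0.29 SE, adjusted p = 0.892). Of 23 cyclins and CDKs 0 passed (2 at an unadjusted p under 0.05) with a median of -0.13 and 7 above. Ccnd1 came closest among them, at 29.4, 75.1 and 325 CPM in control and 338, 397 and 534 CPM in Eed-cKO, with no overlap (1.48 ± 0.37 SE, adjusted p = 0.0502). The members of both genotypes were chosen by genes of these lists.

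The libraries read the 3′ ends of transcripts, so Eed UMIs need not fall in the floxed exons and are no direct check of the deletion. Over all hypothalamic neural cells the authors reported lower Eed in Eed-cKO, with Ezh1, Ezh2 and Suz12 unaffected. The members alone held few Eed UMIs. Eed was at 0, 29.4 and 241 CPM in control and 0, 36.1 and 48.8 CPM in Eed-cKO (-0.91 ± 0.70 SE, adjusted p = 0.944), and its exons overlap E230029C05Rik on the other strand. Ezh2 differed by -0.15 ± 0.31 and Suz12 by -0.27 ± 0.33 (SE, adjusted p = 0.999 each), and Ezh1 had too few UMIs to test. No PRC2 subunit (0 of 9 tested; 0 at an unadjusted p under 0.05) and no PRC1 subunit (0 of 15; 1 at an unadjusted p under 0.05) was called by edgeR. Sox1, whose locus carries Cre in Eed-cKO, was at 24.5, 253 and 522 CPM against 48.3, 90.2 and 147 CPM (-1.49 ± 0.45 SE, adjusted p = 0.467), and Sox2 differed by -0.21 ± 0.32 (SE, adjusted p = 0.999).

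The other genes called in cycling cells fall outside the naming rule and are given after their values were seen. Igfbp5, which binds insulin-like growth factors, was at 21.4, 127 and 176 CPM in control and 179, 541 and 1110 CPM in Eed-cKO (2.19 ± 0.39 SE, adjusted p = 0.00351). Mdk, the growth factor midkine, was at 232, 249 and 376 CPM against 499, 763 and 1072 CPM (adjusted p = 0.00502). Vcl (vinculin, of cell adhesions) and Eln (elastin) rose by 2.66 and 2.04. Cox6b2, Tubb6, Hddc3 and 1500015O10Rik rose by 1.95, 1.96, 2.52 and 2.06, calls that held in 9 of 27, 9 of 27, 12 of 26 and 8 of 27 alternatives and were lost without 8, 6, 6 and 8 of the 12 embryos in turn. Commd3 (chr2:18672384-18676231) rose by 1.75, a call that held in 5 of 27 alternatives and was lost without 10 of the 12 embryos in turn, and 786 bases downstream on the same strand lies the PRC1 gene Bmi1, which did not pass (1.45 ± 0.40 SE, adjusted p = 0.0847).

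The only gene called lower was Ccl9, a chemokine of myeloid cells, with 15 UMIs in control members and 0 in Eed-cKO. Against the floor of 3 UMIs it was at least 14.3-fold lower (adjusted p = 0.0209), a call that was lost without Eed-cKO embryo F0589_E1 (adjusted p = 0.0785). Ccl9 just met the minimum of 15 UMIs, through the control embryos alone, so its call is given as a description. The control embryos were at 0, 29.5 and 98.1 CPM, so that the ranges meet at 0. Summed microglia markers, here without TMM, were at 0 to 2419 CPM in control members (median 1674) and 0 to 2059 in Eed-cKO (median 2.5). All 8 microglia markers were above 0 in both genotypes, and 4 control and 7 Eed-cKO members carried at least 3. With the 39 members that carried non-neural markers removed, Ccl9 had too few UMIs to be tested. That removal left 9 genes called, of which Lmna, Tmem132c, S1pr3, Hey1, Hes5, Vcl and Eln, 7 in all, were among the 18.

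The remaining lists had no call by edgeR. Proneural and neurogenic genes (18 tested, 2 at an unadjusted p under 0.05) stood at a median relative change of 0.36, gliogenic and glial genes (24 tested, 6) at 0.33, rostral and hypothalamic transcription factors (22 tested, 8) at 0.41 and genes of Wnt, BMP, Shh and FGF signalling (36 tested, 2) at 0.11. Beside them, the median over all genes tested is 0 by construction. Here too the minimum of UMIs favoured genes high in Eed-cKO, so these medians are a description.

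**Figure D5:**
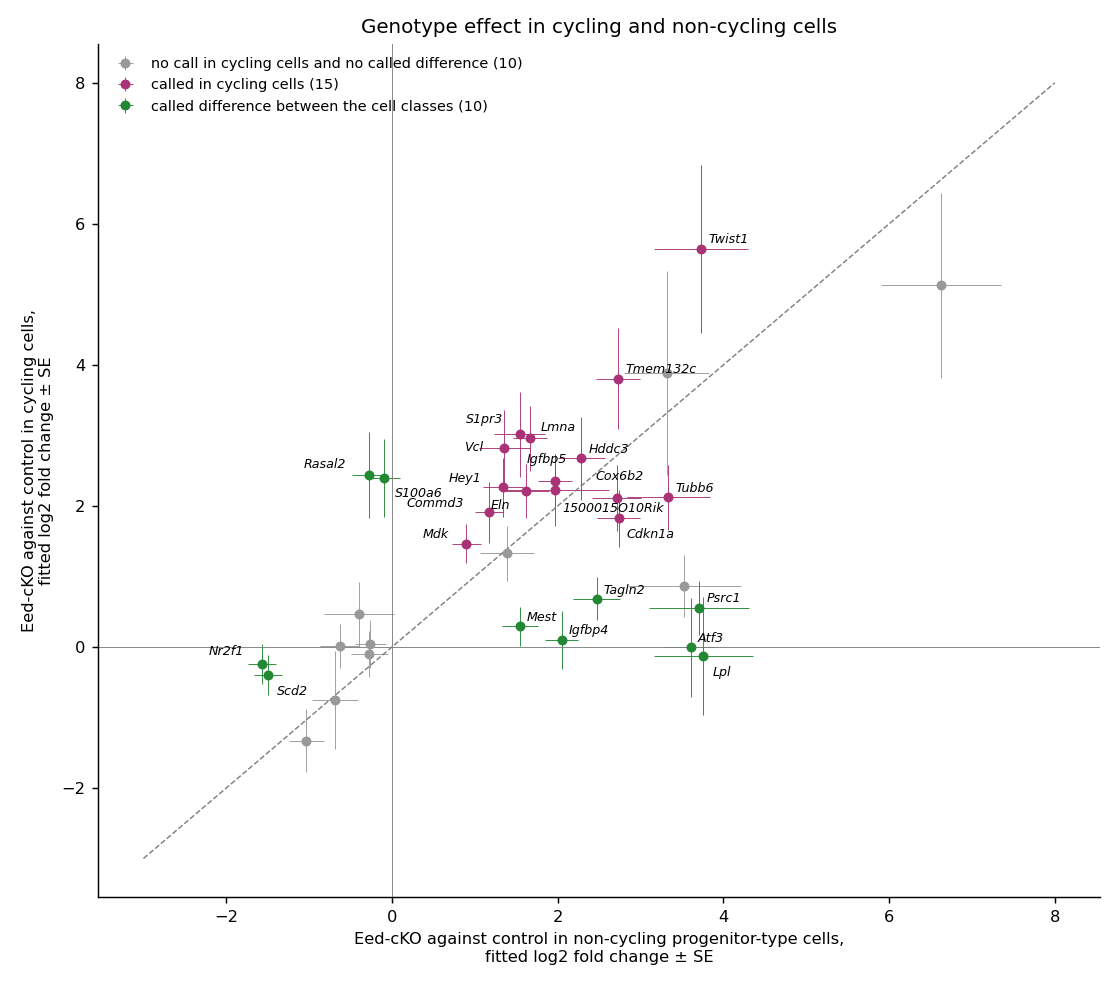
Fitted log2 fold change (Eed-cKO over control, not shifted by the median of all genes) in non-cycling progenitor-type cells (x axis) and in cycling cells (y axis), for called and named genes. Lmna lies above 0 on both axes, while Lpl, Atf3, Psrc1 and Igfbp4 lie high on the x axis and near 0 on the y axis.

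The last comparison asked whether the genotype effect was the same in cycling and in non-cycling progenitor-type cells, by a test of the difference itself within the 12 embryos with at least 5 members. Levels in non-cycling cells are given over all 9 Eed-cKO embryos. Of 10507 genes 11 passed (0.105%), 5 with a higher effect in cycling cells (0.0476%) and 6 with a lower one (0.0571%), and 642 had an unadjusted p under 0.05. The non-cycling class had cells with non-neural markers removed by its definition and the members did not, so each call is given with those members removed too, a comparison added after the data were seen.

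Mest and Igfbp4 had a lower effect in cycling cells either way. Mest, an imprinted gene of growing tissues (chr6:30723547-30748465), is outside the naming rule. It was at 273, 452 and 710 CPM in control against 772, 1355 and 1903 CPM in Eed-cKO in the non-cycling cells, and at 411, 1024 and 1446 against 688, 1111 and 1943 CPM in cycling cells. The difference of the effects was -1.40 ± 0.27 (SE, adjusted p = 0.00315), it was -1.14 with the non-neural members removed, and it was called in 22 of 22 alternatives. Its exons overlap Copg2 on the other strand. Igfbp4, which binds insulin-like growth factors (chr11:99041244-99054392), was at 42.1, 55.7 and 72.0 CPM against 158, 251 and 321 CPM in non-cycling cells, and at 80.3, 263 and 771 against 176, 325 and 734 CPM in cycling cells. The difference was -1.99 ± 0.35 (SE, adjusted p = 0.00127), and -2.34 with the non-neural members removed. It was called in 21 of 22 alternatives, with adjusted p up to 0.726.

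For both genes the control cycling cells overlapped the Eed-cKO cycling cells, while in the non-cycling cells every control embryo lay below every Eed-cKO embryo. Both calls held without each of the 12 embryos in turn. Tagln2, a calponin-like actin-binding protein, differed by -1.86 ± 0.35 (SE, adjusted p = 0.0035) and the mitotic spindle gene Psrc1 by -3.22 ± 0.76 (adjusted p = 0.0402), and with non-neural members removed the differences were -1.79 and -2.99, close to these, though no longer called (adjusted p = 0.127 and 0.0914). The call of Tagln2 was also lost without control embryo F4530_E2 or F4690_E3 (adjusted p = 0.0582 and 0.0595). That of Psrc1 was lost in 8 of 12 cases. Over the 12 embryos, non-cycling cells held 3 UMIs of Psrc1 in control and 74 in Eed-cKO (1.56 and 27.5 CPM, here without TMM). Cycling cells held 30 and 115 UMIs of it (96.7 and 116 CPM). The size of the Psrc1 difference therefore rests on a control value of 3 UMIs. Lpl, lipoprotein lipase, differed by -3.83 ± 0.86 and Atf3, a stress-induced transcription factor, by -3.26 ± 0.66 (SE, adjusted p = 0.0261 and 0.0271). Both rested on control embryo F4690_E3, at 294 CPM of Lpl and 331 CPM of Atf3 in its cycling cells, and without it the differences were -2.45 and -1.27 (adjusted p = 0.719 and 0.906). Without non-neural members they were -1.24 and 0.47 (adjusted p = 0.931 and 0.995).

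In the other direction, Nr2f1 and Scd2 were lower in Eed-cKO in the non-cycling cells and less so in the cycling cells. Nr2f1 (COUP-TFI, a transcription factor of forebrain patterning) was at 530, 826 and 985 CPM against 154, 268 and 366 CPM in non-cycling cells, and at 160, 510 and 627 against 302, 380 and 499 CPM in cycling cells, a difference of effects of 1.29 ± 0.29 (SE, adjusted p = 0.0261). Scd2, a fatty acid desaturase of glia, differed by 1.13 ± 0.27 (SE, adjusted p = 0.0402). With non-neural members removed the values were 1.25 and 1.08, and both calls remained. Each was lost without some single embryo, in 3 of 12 cases for Nr2f1 and 6 for Scd2, with adjusted p from 0.0545 to 0.117. S100a6, a calcium-binding protein, differed by 2.47 and Rasal2, a Ras GTPase activator, by 2.66. With non-neural members removed they differed by 1.52 and 2.77 and were not called (adjusted p = 0.485 and 0.0639). Without control embryo F4690_E3 neither was called (adjusted p = 0.0747 and 0.0595). The call of Rasal2 was lost in 5 of 12 such cases, with adjusted p up to 0.14, and that of S100a6 in 1 of 12.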

How the data were processed

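The authors deposited raw UMI counts as a matrix of genes by cells (14121 cells, 16510 genes, 48 libraries), made per the labels with STAR 2.5.2b and SAMtools 1.3 on mm10 and filtered by the authors; the lowest cell held 601 UMIs and the lowest gene 7. The strand setting of the counting is not given in the sources used here. Floors cover counting error only. The members and gene lists were chosen with earlier results of these data known. Libraries of an embryo were summed, and p-values measure the spread between embryos.

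Shares were compared over 6 control and 9 Eed-cKO embryos by exact two-sided permutation tests with Benjamini-Hochberg adjustment. UMIs of the members of each embryo with at least 5 were summed and tested with edgeR 4.0.16 (quasi-likelihood, robust, TMM, R 4.3.3), on genes with at least 15 UMIs in all and 2 in 1 embryo. The genes used by the rule were not tested, and the non-cycling class left out its own defining genes. The fit was tested on simulated data with changes planted in genes of at least 50 UMIs. In cycling cells it recovered 10% of changes of 1 log2 unit and 58% of changes of 2. In non-cycling progenitor-type cells it recovered 51% and 89%. Cells were classed with Python 3.11.15 and scanpy 1.11.5. Doublets (the 6% of cells with the highest Scrublet score in each library) were kept and removed as an alternative. Other alternatives used DESeq2 1.42.0, limma 3.58.1 with TREAT at 0.18, other filters, member rules and thinning to 1000 or 2000 UMIs. Named genes were all CDK inhibitors, Eed, Ezh1, Ezh2, Suz12, Sox1 and Sox2, called cyclins and CDKs, up to 4 called genes of each list, the 5 largest non-overlapping rises and falls with at least 50 UMIs, and the 5 largest differences of effect in each direction. Positions are from GENCODE vM21, and promoters from RefSeq, both on GRCm38 (mm10). The values of some called genes are not reported here, and these genes stay in the counts of calls.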

Additional observations from a re-analysis of the deposited data

Results flagged for a closer look

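Of 72 groups of 4 to 10 values checked, 9 had a sample set apart from the rest of its group, and chance gives about 1 in 20. In control these were the part of progenitor-type cells that was cycling in embryo F4520_E4 (15.7%, next 9.28%), the share of members with neuron markers in F4650_E2 (80%, next 28.6%), and in cycling cells Atf3 and Lpl in F4690_E3 (331 and 294 CPM, next 44.0 and 58.7), Cdkn1a in F4650_E1 (147 CPM, next 49.1) and Eed in F4530_E2 (241 CPM, next 85.9). In Eed-cKO they were Igfbp4 (734 CPM, next 381), S100a6 (338 CPM, next 159) and Twist1 (147 CPM, next 59.0), all 3 in F0652_E5.

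The genotype effect differed between cycling and non-cycling progenitor-type cells for 11 genes by the test of the difference in edgeR. Where reported here, it was lower in cycling cells, on the log2 scale, by -3.83 for Lpl, -3.26 for Atf3, -3.22 for Psrc1, -1.99 for Igfbp4, -1.86 for Tagln2 and -1.40 for Mest. It was higher by 1.13 for Scd2, 1.29 for Nr2f1, 2.47 for S100a6 and 2.66 for Rasal2.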

How the results depend on the processing

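No paired analysis was possible because replicate numbers follow accession order and no embryo belongs to both genotypes. With 5 to 11 members in a control embryo, the counts of single embryos limited what could be seen. The larger share of cycling cells passed the adjusted threshold with cells thinned to 2000 UMIs (difference 0.857 percentage points), with at least 2 of 5 cycling markers (1.77) and with each library as a sample (1.55). The last setting counts 22 control and 26 Eed-cKO libraries of 6 and 9 embryos, so that pieces of an embryo stand as separate samples and its p is too small, here and below. Without the embryos of 1 or 2 libraries, a setting added after seeing the data that leaves out exactly the 3 Eed-cKO embryos inside the control range, the difference was 1.83 and its p is no support. Leaving out an embryo in turn it was between 0.890 and 1.35. The share of non-cycling progenitor-type cells did not pass in females only (3.88, adjusted p = 0.286) or males only (4.38, adjusted p = 0.171), also added after seeing the data, by exact permutation of fewer embryos, and was between 4.10 and 4.86 without single embryos. Cycling cells among progenitor-type cells turned to -0.907 when thinned to 1000 UMIs, and passed with each library as a sample (6.63). It was 8.87 without the embryos of 1 or 2 libraries, which had the lowest Eed-cKO values of it. S-phase-type cells outside the rule passed when thinned to 2000 UMIs (0.657), with each library as a sample (0.597) and without those embryos (0.765). The difference of cycling oligodendrocyte precursor-type cells turned to -0.0540 in females only, and that of endothelial-type cells passed when thinned to 2000 UMIs (-5.48). Of the makeup of the members, neuron markers turned to -20.1 when thinned to 2000 UMIs and to -24.5 with at least 10 members in an embryo, and ran from -5.90 to 10.7 without single embryos. Proneural markers turned to -1.09 when thinned to 2000 UMIs, and astrocyte markers ran from -5.07 to 10.5 without single embryos. Hox UMIs did not pass when thinned to 2000 UMIs (23.7) or with at least 10 members (46.3), each with fewer embryos.

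The 18 genes called in cycling cells became 11 with library size, 8 with DESeq2, 9 with limma TREAT, 8 with at least 50 UMIs, 78 with at least 1 UMI, 8 with each litter as a sample, 11 without the library with the most cells (added), 3 with at least 4 of 5 cycling markers, 9 with non-neural and 9 with neuron markers removed (the latter added), and 3 with at least 10 members, and ran from 9 to 24 without single embryos (9 without control F4530_E2, 24 without Eed-cKO F0652_E5). Of the 3 with at least 10 members, 0 were among the 18. The calls of Igfbp5, Vcl, Mdk, Hey1, Lmna, Tmem132c and Eln passed without every single embryo. The 828 calls in non-cycling progenitor-type cells became 477 with limma TREAT and ran from 614 to 862 without single embryos. The 11 differences of effect became 18 with TMMwsp (added), 6 with DESeq2, 7 with limma without TREAT, 2 with at least 50 UMIs, 36 with at least 1 UMI, 22 with Scrublet doublets removed and 2 against all other cells with 0 cycling markers, and ran from 5 (without control F4690_E3) to 40 (without control F4520_E2). The cause was not tested.

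Of 715 values of named genes in alternatives, 574 kept direction and call, 66 lost the call, 10 gained it and 65 changed sign, of which 0 belonged to a called gene. The values that changed sign, as fitted log2 fold changes without the shift, are these. With library size they were -0.13 for Cdkn1b, -0.18 for Ezh2 and -0.049 for Igfbp4. With DESeq2 they were 0.092 for Atf3, -0.12 for Cdkn1b and -0.14 for Ezh2. With limma TREAT they were 1.15 for Atf3, -0.0234 for Cdkn1b, 0.62 for Lpl and 0.24 for Sox2. With at least 1 UMI Atf3 was at 0.019, and with at least 50 UMIs Cdkn1b was at -0.080, Ezh2 at -0.10 and Igfbp4 at -0.00253. With sex as a covariate Atf3 was at 0.15, Cdkn1b at -0.12 and Sox2 at 0.015, and with each litter as a sample Atf3 was at 0.040 and Ezh2 at -0.013. With at least 4 of 5 cycling markers Atf3 was at 5.55, Cdkn1b at -0.45, Cdkn2d at -0.18, Eed at 0.64, Ezh2 at -0.34, Igfbp4 at -0.035, Lpl at 2.53 and Nr2f1 at 0.33. With non-neural markers removed Atf3 was at 3.64, Eed at 0.013, Igfbp4 at -0.33, Lpl at 2.43 and Sox2 at 0.22, and with neuron markers removed Sox2 was at 0.14. With at least 1 member in an embryo Atf3 was at 0.33 and Ezh2 at -0.089. With at least 10 members Atf3 was at 1.69, Cdkn1b at -0.0680, Lpl at 1.12, Scd2 at 0.13, Sox2 at 0.36 and Suz12 at 0.33. Without single embryos Atf3 ran from -0.28 to 2.24, Lpl from -0.41 to 1.55, Cdkn1b from -0.21 to 0.17, Ezh2 from -0.24 to 0.18, Igfbp4 from -0.22 to 0.56, Sox2 from -0.33 to 0.19 and Suz12 from -0.27 to 0.061.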
